A study of Mus musculus with 3 samples.

Results

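The basement membrane is the thin sheet of matrix on which the cells of the alveolus sit. It is built from a collagen IV network and a laminin network, and epithelial cells hold on to it through integrins. Described here are 9 mouse genes of this structure: the collagen IV chains Col4a1, Col4a2, Col4a3 and Col4a4, the laminin chains Lama3, Lama5 and Lamb3, and the integrin subunits Itga6 and Itgb4. They were chosen by name. The peaks taken for them are those with any base in the gene or within 20 kb of it (GRCm38), which gave 45 of the 31165 ETV5 peaks and 16 of the 15134 H3K4me3 peaks in the series. The 9 genes form 7 separate loci, because Col4a1 and Col4a2, and likewise Col4a3 and Col4a4, are neighbours that start next to each other.

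All chromatin was taken from AT2 cells, the alveolar type II cells that make surfactant and renew the alveolar epithelium, of C57BL/6 mice that were 10 to 12 weeks old; the labels give no further genotype and no treatment. The Proteintech antibody was raised to ETV5, an ETS-family transcription factor downstream of FGF and ERK signalling. The Abcam antibody recognises H3K4me3, trimethylated lysine 4 on histone H3, which is found mainly at promoters. Whether the genes that carry it were expressed was not tested. The sample without antibody is input, and the header of the ETV5 peaks names another input as its background than the labelled one. There was 1 library per antibody, so no value below has a replicate check, and no source used here says how many mice were pooled. The ETV5 library held 5715049 tags and the H3K4me3 library 34907608.

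The AT2 label was set against H3K4me3 with any base within 1 kb of the ends or starts of marker genes. All 12 AT2 markers carried it, among them Sftpc and Abca3. So did 7 of 8 markers of the neighbouring AT1 cells, 1 of 4 airway markers, 2 of 6 leukocyte markers and 1 of 6 endothelial markers, Cldn5. None of 4 basal cell markers and none of 6 mesenchymal markers did. For scale, 53.6% of all protein-coding genes met a stricter rule, an H3K4me3 summit within 1 kb of an own end or start. The share under the rule used for the markers was not computed. Endothelial and mesenchymal cells also make collagen IV and laminins, and the part of such cells in the peaks described here was not tested.

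Each collagen IV molecule is a trimer. The chains of Col4a1 and Col4a2 form the trimer found in nearly all basement membranes, and those of Col4a3 and Col4a4 join the Col4a5 chain in a trimer found in few tissues, the lung alveolus and the kidney glomerulus among them. Laminins are trimers of an alpha, a beta and a gamma chain. Lama5 encodes an alpha chain abundant in the alveolar basement membrane, and Lama3 and Lamb3 encode chains of the laminin that anchors epithelia. Itga6 and Itgb4 encode both subunits of the integrin that binds laminin at hemidesmosomes, the junctions that fix epithelial cells to the membrane below.

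ETS factors bind DNA at a GGAA core, most tightly when flanked as in CCGGAAGT. The promoters of 5 of the 9 members were found in the RefSeq table (GRCm38.p6), namely those of Col4a1, Col4a2, Col4a4, Lama5 and Lamb3. Shown are the 250 bases before the start of these members, at their own ETV5 peaks (for Lamb3 the first of its starts), and, for contrast, of Adrm1, the neighbour of Lama5 that holds the strongest ETV5 peak of that locus. Capitals mark every GGAA, or TTCC where the core is on the other strand.
Col4a1 (chr8:11312827-11313076, minus strand): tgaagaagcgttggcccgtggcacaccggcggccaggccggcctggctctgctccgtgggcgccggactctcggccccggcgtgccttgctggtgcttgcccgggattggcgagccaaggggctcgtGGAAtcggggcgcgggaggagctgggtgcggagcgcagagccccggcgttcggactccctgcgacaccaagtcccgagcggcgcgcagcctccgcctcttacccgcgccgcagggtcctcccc
Col4a2 (chr8:11312555-11312804, plus strand): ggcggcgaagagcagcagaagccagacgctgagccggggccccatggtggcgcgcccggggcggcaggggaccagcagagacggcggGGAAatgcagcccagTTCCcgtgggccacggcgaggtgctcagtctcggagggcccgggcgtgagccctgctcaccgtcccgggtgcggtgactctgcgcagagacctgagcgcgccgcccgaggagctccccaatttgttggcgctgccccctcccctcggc
Col4a4 (chr1:82586850-82587099, minus strand): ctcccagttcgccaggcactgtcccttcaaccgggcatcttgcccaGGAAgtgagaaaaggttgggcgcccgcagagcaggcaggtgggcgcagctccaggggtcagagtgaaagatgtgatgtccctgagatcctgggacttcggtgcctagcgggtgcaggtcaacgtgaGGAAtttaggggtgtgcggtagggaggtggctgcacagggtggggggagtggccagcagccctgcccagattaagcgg
Lama5 (chr2:180225860-180226109, minus strand): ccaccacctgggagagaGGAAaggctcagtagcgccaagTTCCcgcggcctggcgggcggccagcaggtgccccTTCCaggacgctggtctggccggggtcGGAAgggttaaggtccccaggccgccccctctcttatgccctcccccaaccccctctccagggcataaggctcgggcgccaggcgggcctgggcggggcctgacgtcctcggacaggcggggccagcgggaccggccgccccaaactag
Lamb3 (chr1:193301744-193301993, plus strand): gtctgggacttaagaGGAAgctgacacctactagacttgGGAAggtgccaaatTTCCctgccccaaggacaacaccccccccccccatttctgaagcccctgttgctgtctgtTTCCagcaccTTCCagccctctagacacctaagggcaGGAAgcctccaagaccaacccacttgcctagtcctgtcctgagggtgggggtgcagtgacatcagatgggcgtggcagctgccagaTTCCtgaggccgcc
Adrm1 (chr2:180171338-180171587, plus strand): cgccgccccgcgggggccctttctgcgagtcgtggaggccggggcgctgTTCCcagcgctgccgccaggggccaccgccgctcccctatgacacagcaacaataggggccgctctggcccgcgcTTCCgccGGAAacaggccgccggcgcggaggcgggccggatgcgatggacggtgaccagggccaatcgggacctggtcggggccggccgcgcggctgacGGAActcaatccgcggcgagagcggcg
None of the promoters of the 5 members held CCGGAA on either strand, in the whole table entry of 250 bases before to 50 after the start, and so none held the longer CCGGAAGT. Of all 32851 promoters listed, 14.9% held CCGGAA and 3.89% held CCGGAAGT. Among the 5541 promoters with an ETV5 summit inside, these shares were 43.7% and 15.2%. The entry of Lama5 is not among these, since its summit lay 102 bp after the start, and the entries of Col4a1 and Col4a2 overlap and share 1 peak, so the members add only 3 separate peaks to that class. The Adrm1 promoter held CCGGAA 2 times, of which the copy in the bases shown lay 12 bp from the ETV5 summit and the other lay after the start. Adrm1 was the exception among the neighbours: the promoters of Mff, H3f3b, Pdk1 and Galk1, whose ETV5 peaks had folds of 96.6, 37.1, 20.4 and 14.8, held no CCGGAA either. The summits at H3f3b, Pdk1 and Galk1 lay 301, 177 and 350 bp after the nearest start, outside these entries. The sequence at those summits was thus not searched. The Col4a4 promoter held GGAAGT, a string searched only after the data were seen, with its centre 8 bp from the ETV5 summit and its first base 204 bp before the start. It was not particular to Col4a4: the promoters of Mff (2 copies, 66 and 162 bp from the summit) and Galk1 held it too. GGAAGT was in 23.8% of all promoters and in 36.0% of those with an ETV5 summit. The core GGAA alone was in 96.0% of promoters with a summit and in 96.0% of those without. A match is a string of letters and not a site shown to be bound, and both longer strings also count as GGAA, which they contain.

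All 9 members had an ETV5 peak and an H3K4me3 peak in the window of 20 kb. The same held for 68.6% and 66.0% of the 21883 protein-coding genes, and for 80.0% and 77.9% of the 6178 genes whose window, like those of the members, was 73.7 to 289.6 kb long. A stricter look asked for a summit within 1 kb of the gene's own annotated end or RefSeq start. All 9 members met this for both, against 56.0% of all protein-coding genes for ETV5 and 53.6% for H3K4me3 (68.8% and 67.3% among genes of like window length). Col4a1 and Col4a2 share 1 such ETV5 peak, as do Col4a3 and Col4a4, so the 9 members rest on 7 ETV5 peaks. The rule for a summit at an own end was set after the data were seen.

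The ETV5 peaks at the members' own ends were of modest height, and in 3 of the 7 loci (Col4a3 and Col4a4, Lama5, Itga6) the strongest peak lay at a neighbouring gene. Height is given as fold enrichment, the authors' value for each peak: the fragments piled up at the summit over the local background from input, with 1 added to both. Of the 45 ETV5 peaks, 7 lay at an end or start of a member, with folds of 5.50 to 16.7 (median 8.64). Another 6 lay at an end or start of a neighbour, with folds of 5.79 to 96.6 (median 28.8). A further 26 lay inside a member more than 1 kb from every gene end and start, with folds of 3.15 to 56.5 (median 4.93), and 6 lay between genes, with folds of 3.56 to 7.23. The median fold of all ETV5 peaks was 6.60. The median at neighbours' ends covers only neighbours with an ETV5 peak there. Others, such as Rab20 and Camk1g, had an end in a window without a peak, while every member had one at an own end.

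**Figure D1:**
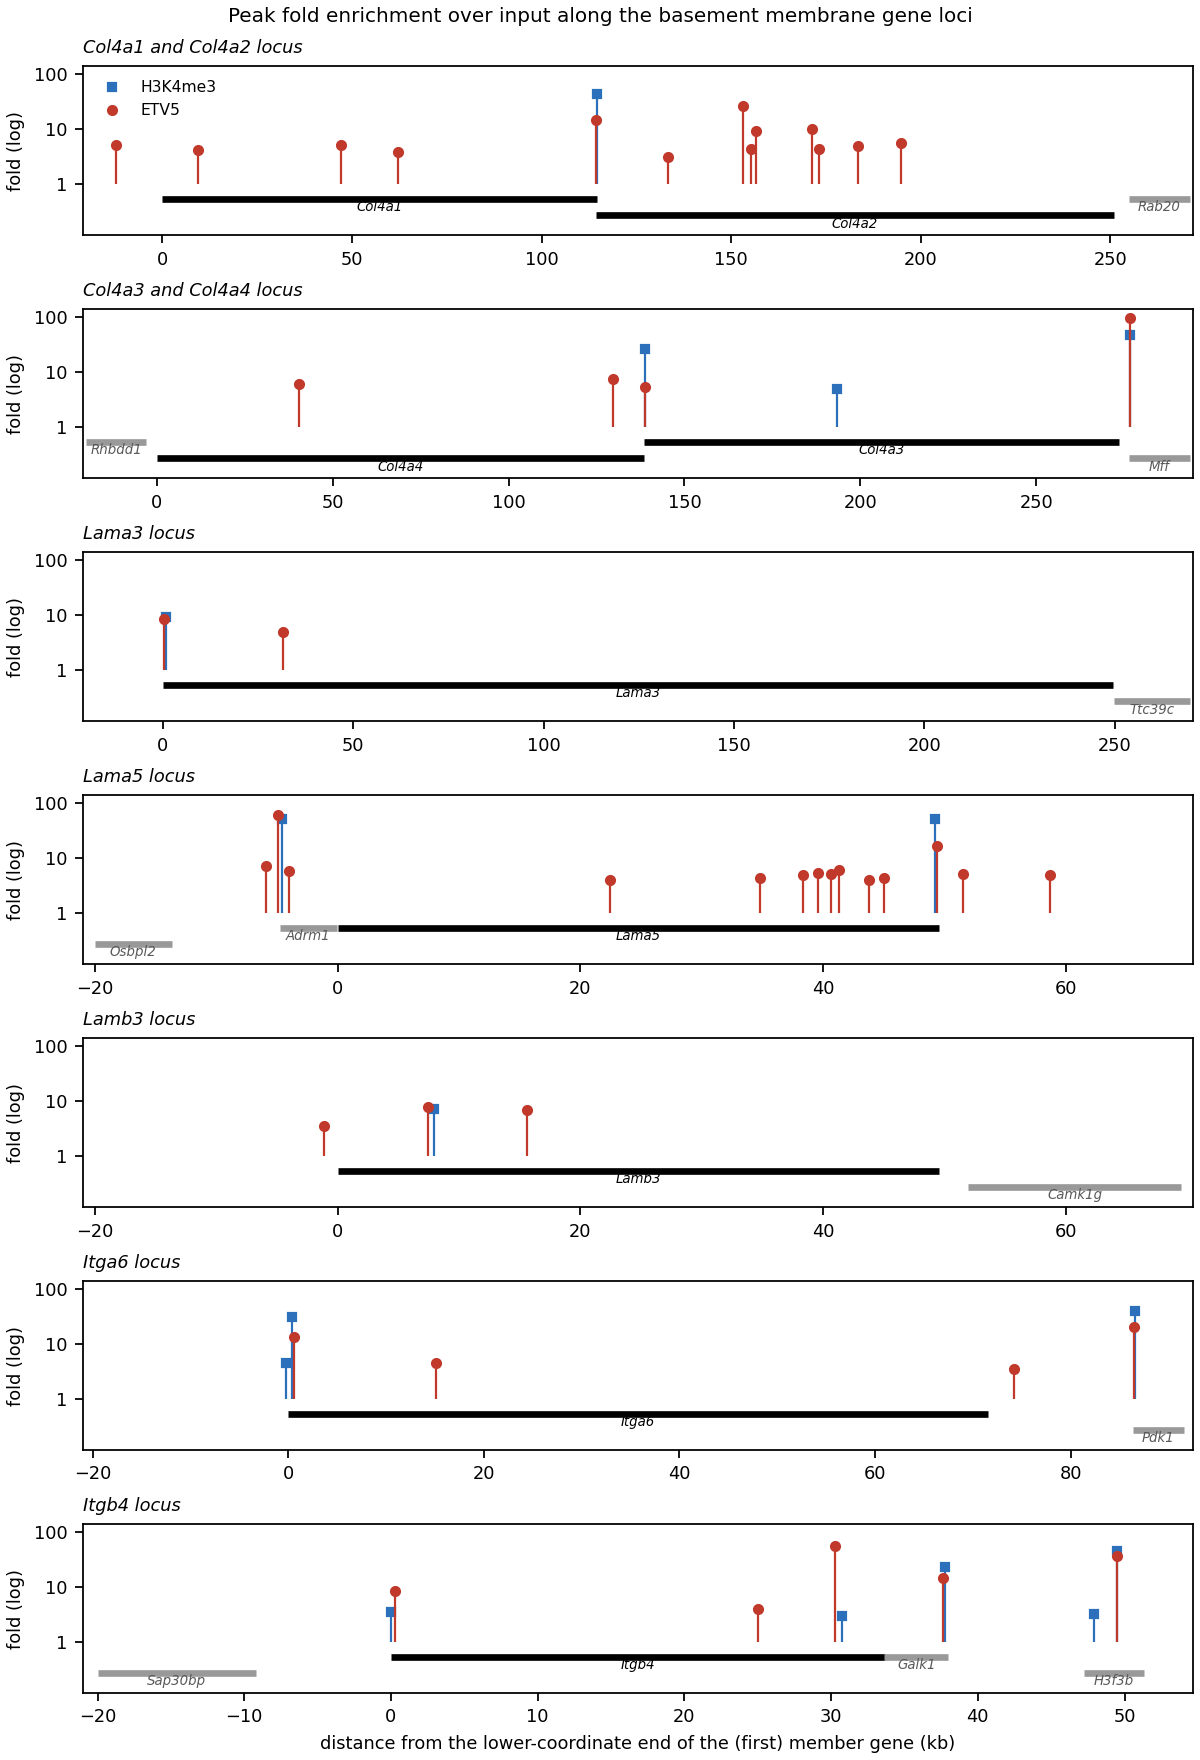
ETV5 (circles) and H3K4me3 (squares) peaks along the 7 loci, placed by the distance of the summit from the lower-coordinate end of the locus (kb), with fold enrichment over input on a log axis; black bars are member genes and grey bars protein-coding neighbours. The highest ETV5 points sit at Mff, at Adrm1 and inside Itgb4, and H3K4me3 sits at the starts where Col4a1 meets Col4a2 and Col4a4 meets Col4a3.

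Overlap with H3K4me3 followed position in these loci. The same split was not made over the whole ETV5 list, so it is not shown to be particular to them. All 7 ETV5 peaks at members' own ends and all 6 at neighbours' ends overlapped an H3K4me3 peak by at least 1 bp. Of the 26 inside a member away from ends 1 did, that of Itgb4, and of the 6 between genes none did. In all 14 of 45 overlapped (31.1%), and over the whole ETV5 list 48.9% did. Of the 31 that did not, 12 were in the Col4a1 and Col4a2 locus and 11 in that of Lama5, so the share rests largely on these loci. Where only peaks of both lists with a −log10 q of at least 10 were kept, 10 of 16 overlapped (62.5%), against 79.5% of the whole list, and with a fold of at least 10 it was 8 of 11 (72.7%), against 82.6%. With only peaks nearest to an end or start of a member it was 7 of 36 (19.4%). This left out both peaks inside Itgb4, since an end of Galk1 was slightly closer to them. For the one in H3K4me3 the distances were 3360 bp to Galk1 and 3415 bp to Itgb4. Of the 16 H3K4me3 peaks 14 (87.5%) overlapped an ETV5 peak, near the 84.2% of the whole H3K4me3 list. The other 2 were weak ones inside Col4a3 and at H3f3b, with folds of 5.01 and 3.24.

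**Figure D2:**
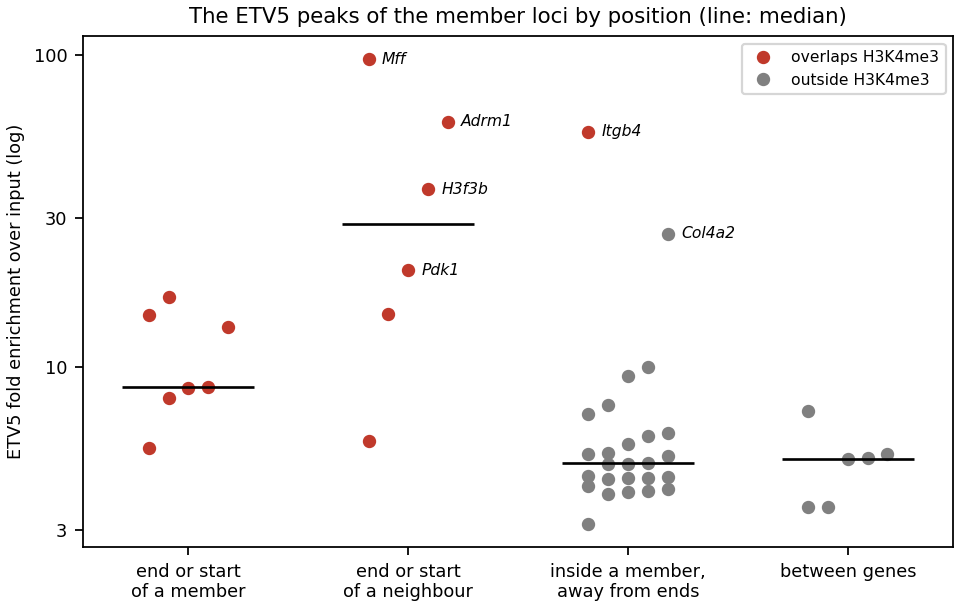
Fold enrichment (log axis) of the 45 ETV5 peaks by position, coloured by overlap with H3K4me3; each point is 1 peak, lines are medians and names are given for folds over 20. The median at neighbours' ends (28.8), which covers only neighbours with a peak there, lies above that at members' own ends (8.64). The peaks in Itgb4 and Col4a2 stand above the other peaks inside members.

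Col4a1 and Col4a2, the chains of the common collagen IV trimer, shared 1 promoter peak. Their genes (chromosome 8, 11198423 to 11312889 and 11312805 to 11449287) overlap by 85 bp and their RefSeq starts are 21 bp apart, on opposite strands. The ETV5 peak there (11312230 to 11313260) had fold 14.7 and a pileup of 35 fragments (exact 95% Poisson interval 24.4 to 48.7), with its summit 11 bp before the start of Col4a1 and 32 bp after that of Col4a2. It lay wholly within an H3K4me3 peak of 3404 bp with fold 44.9 and a pileup of 285 (253 to 320). Because 1 peak covers both starts, it cannot be assigned to either gene. Of the 12259 genes with ETV5 at an own end, 45.7% had a higher fold.

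Col4a2 also had 8 ETV5 peaks inside the gene, none of them in H3K4me3, spread over 61846 bp. The strongest (11350478 to 11351778) was 1301 bp wide, with fold 26.7 and a pileup of 54 (40.6 to 70.5), and its summit lay 38728 bp from the Col4a2 start. The next highest had pileups of 22 (13.8 to 33.3; fold 9.37) and 32 (21.9 to 45.2; fold 10.0). The remaining 5 had pileups of 8 to 10 fragments and folds of 3.15 to 5.68. The strongest peak thus exceeded the promoter peak in fold, although the Poisson intervals of both pileups overlapped. It was 35909 bp from the nearest H3K4me3 peak, and 0.603% of the ETV5 peaks outside H3K4me3 had a higher fold. Only 0.768% of protein-coding genes had 8 or more ETV5 peaks inside and away from ends, a share that depends on gene length. Col4a1 had 3 such peaks, with pileups of 7 and 8 and folds of 3.92 to 5.18.

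Col4a3 and Col4a4, the chains of the restricted trimer, shared a weaker promoter peak. Col4a4 (chromosome 1, 82448419 to 82587034) and Col4a3 (82586921 to 82722059) overlap by 114 bp. The ETV5 peak over that overlap (82586900 to 82587213) had fold 5.50 and a pileup of 11 (5.49 to 19.7), the lowest of any member, and 92.0% of genes with ETV5 at an own end had a higher one. Its summit lay 25 bp beyond the upper end of Col4a4 and 138 bp inside the lower end of Col4a3, beside the GGAAGT described above. The H3K4me3 peak around it was 1762 bp wide, with fold 27.0 and a pileup of 171 (146 to 199). In their own lists, 49.3% of H3K4me3 peaks and 64.5% of ETV5 peaks had a higher fold.

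The peak of fold 96.6 in the Col4a3 window was not at Col4a3 itself. It lay 2899 bp beyond the upper end of the gene and 40 bp from a start of Mff, which encodes a mitochondrial fission factor, with a pileup of 176 (151 to 204). The noncoding gene C430014B12Rik lies there too. The ETV5 peak overlapped an H3K4me3 peak of fold 48.6 at the same start. Inside Col4a4 were 2 further ETV5 peaks, of folds 6.17 and 7.57, both outside H3K4me3. Inside Col4a3 and away from its ends no ETV5 peak was called at this depth, and 1 narrow H3K4me3 peak was (373 bp, fold 5.01, pileup 31).

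Lama5 had the highest own ETV5 and H3K4me3 peaks of the 9 members. At its start (gene on chromosome 2, 180176373 to 180225904) the ETV5 peak (180225310 to 180226183) had fold 16.7 and a pileup of 40 (28.6 to 54.5), with the summit 102 bp after the start. The H3K4me3 peak over it was 2589 bp wide with fold 52.5 and a pileup of 334 (299 to 372), and 9.14% of genes with the mark at an own end had a higher fold. The noncoding gene Gm52542 lies at the same place, so the peaks cannot be assigned to Lama5 alone.

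Lama5 had 14 ETV5 peaks in its window, more than any other member. That is 15.6 per 100 kb of window, against a median of 2.05 over all protein-coding genes, and 5.06% of genes had a higher density. The median was 1.65 among genes of like window length and 4.04 among genes with both ETV5 and H3K4me3 at an own end. Of the 14 peaks, 2 lay at Adrm1 and 3 between genes. Inside the gene 8 of them lay within 22765 bp, none in H3K4me3, each with a fold of 3.99 to 6.01 and a pileup of 7 to 15 fragments. They lay 2269 to 24831 bp from the nearest H3K4me3 peak. The local background from input implied by their folds was 0.83 to 1.66 fragments, a range that holds the median of all ETV5 peaks, 1.04. From the tag number over the whole genome 0.62 is expected. The part of this background in these weak peaks was not tested. The strongest peak of the window, of fold 61.0 with a pileup of 132 (110 to 157), was 107 bp before the start of Adrm1, which encodes a ubiquitin receptor of the proteasome.

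Lama3 and Lamb3, the chains of the anchoring laminin, had low peaks for both. At Lama3 (chromosome 18, 12333417 to 12583013) an ETV5 peak of fold 8.57 and a pileup of 13 (6.92 to 22.2) lay 203 bp inside the lower end of the gene. The H3K4me3 peak over it had fold 9.48 and a pileup of 75 (59.0 to 94.0), and 91.3% of genes with the mark at an own end had a higher fold. In the rest of this gene of 249597 bp 1 more ETV5 peak was called (fold 4.94, pileup 7, interval 2.81 to 14.4). At 0.691 ETV5 peaks per 100 kb, Lama3 had the lowest density of the 9.

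At Lamb3 (chromosome 1, 193294353 to 193343878) both peaks lay well inside the annotated gene, at its RefSeq starts, of which the first is 7641 bp from its lower end. The ETV5 peak (193301462 to 193302160) had fold 7.98 and a pileup of 13 (6.92 to 22.2), with its summit 161 bp before the first start, inside the promoter shown above. The H3K4me3 peak (193301868 to 193302592) was 725 bp wide with fold 7.27 and a pileup of 63 (48.4 to 80.6). The 2 peaks overlapped by 293 bp. Another ETV5 peak inside the gene had fold 7.07, and 1 peak 1124 bp outside its lower end had fold 3.57.

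Itga6 and Itgb4, the subunits of the hemidesmosome integrin, differed in H3K4me3. At the lower end of Itga6 (chromosome 2, 71786886 to 71858427) an H3K4me3 peak of 1409 bp had fold 31.4 and a pileup of 199 (172 to 229), with a second, weak one of fold 4.55 beside it. The ETV5 peak over them (71786493 to 71787724) had fold 13.4 and a pileup of 29 (19.4 to 41.6), near the median of 13.5 for genes with ETV5 at an own end. The higher ETV5 peak in the window, of fold 20.4, lay 177 bp from a start of Pdk1, a kinase that inhibits pyruvate dehydrogenase. The other 2 peaks, inside the gene and 2619 bp beyond its upper end, had folds of 4.48 and 3.56.

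Itgb4 had the lowest H3K4me3 of the members at its own ends and the highest ETV5 peak inside any of them. At its lower end (gene on chromosome 11, 115974725 to 116008412) the H3K4me3 peak was 298 bp wide, with fold 3.61 and a pileup of 22 (13.8 to 33.3). Of genes with the mark at an own end, 98.9% had a higher fold. The ETV5 peak there had fold 8.64 and a pileup of 22 (13.8 to 33.3). The strong ETV5 peak (116004717 to 116005487) was 771 bp wide with fold 56.5 and a pileup of 126 (105 to 150.0), over a local background of 1.25 fragments. Its summit lay 30272 bp from the lower end of Itgb4 and 3415 bp from its upper end, and the nearest protein-coding gene end was that of Galk1, 3360 bp away. Of 16573 ETV5 peaks more than 1 kb from every gene end and start, 54 (0.326%) had at least this fold. The only H3K4me3 beside it was a peak of 376 bp with fold 2.99 and a pileup of 23 (14.6 to 34.5), which overlapped it by 278 bp. Among the 401 ETV5 peaks of at least this fold, 12 (2.99%) lay outside H3K4me3 or overlapped a peak of H3K4me3 fold under 5. Whether it falls in an exon or an intron was not determined, since the gene table used here gives only gene ends.

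The remaining strong ETV5 peaks of the Itgb4 window were at neighbours. One of fold 37.1 and a pileup of 80 (63.4 to 99.6) lay 301 bp from the start of H3f3b, which encodes the replacement histone H3.3. Another of fold 14.8 lay 350 bp from the start of Galk1, a galactose kinase. Both overlapped H3K4me3 peaks, of folds 45.7 and 23.7.

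Set side by side, the own-end ETV5 pileups ran from Lama5 (40) over the Col4a1 and Col4a2 start (35), Itga6 (29), Itgb4 (22), Lama3 and Lamb3 (13 each) to the Col4a3 and Col4a4 start (11). The Poisson intervals of neighbours in this order overlapped, so the order is resolved only at its ends: the intervals of Lama5 and of the Col4a1 and Col4a2 start began at 28.6 and 24.4, above the 22.2 at which those of Lama3 and Lamb3 ended and the 19.7 of the Col4a3 and Col4a4 start. The H3K4me3 pileups ran from 334 at Lama5 and 285 at the Col4a1 and Col4a2 start, over 199 at Itga6 and 171 at the Col4a3 and Col4a4 start, to 75 at Lama3, 63 at Lamb3 and 22 at Itgb4. Here the intervals separated the first 2 loci from the next 2, these 4 from the last 3, and Itgb4 from Lama3 and Lamb3. These intervals cover counting error only, and pileups of the 2 antibodies are not on a common scale.

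**Figure D3:**
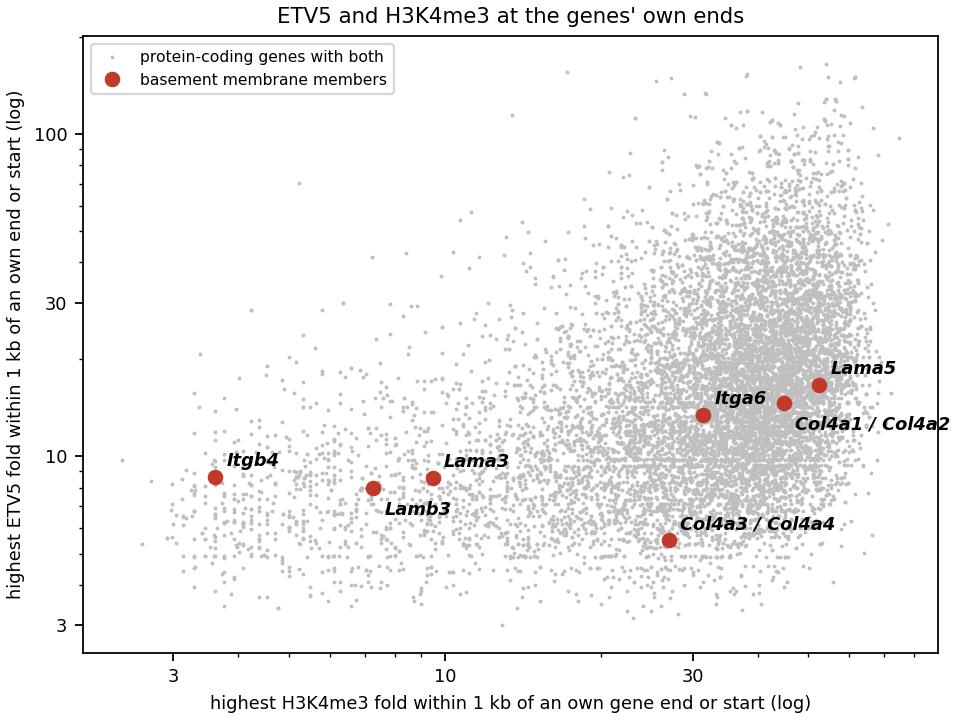
Highest ETV5 fold against highest H3K4me3 fold within 1 kb of a gene's own ends or starts, both on log axes; grey points are the protein-coding genes with both, red points the members. Lama3, Lamb3 and Itgb4 lie at the low end of H3K4me3 (folds of 9.48, 7.27 and 3.61), and the shared Col4a3 and Col4a4 start lies low in ETV5 (5.50) at a middling H3K4me3 fold (27.0).

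Inside genes and away from every gene end and start, 8 of the 9 members had an ETV5 peak, all but Col4a3, against 21.9% of all protein-coding genes and 34.1% of those of like window length. With a fold of at least 10, 2 members did, Col4a2 and Itgb4, against 4.60% and 8.38%. The members were chosen by name with earlier results of these data known, and these counts describe the 9 genes only.

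A wider list of 64 basement membrane and adhesion genes gave the setting. Of these, 59 (92.2%) had an ETV5 peak and 53 an H3K4me3 peak in the window of 20 kb, and 48 had ETV5 and 41 (64.1%) H3K4me3 at an own end. Over all protein-coding genes these shares were 68.6% and 66.0% in the window, and 56.0% and 53.6% at an own end. Among genes with windows as long as those of the members they were 80.0% and 77.9% in the window, and 68.8% and 67.3% at an own end. At an own end both shares of the wider list were near the latter. The median ETV5 fold at an own end was 8.80, close to the 8.64 of the members and below the 13.5 of all genes with a peak there. The groups below are small and are to be read against the 56.0% of all genes and the 68.8% of those of like window length. The 12 collagen assembly genes, which encode enzymes and a chaperone for procollagen, had ETV5 at an own end in 9 members with a median fold of 15.9. All 10 integrin adhesion genes, which link integrins to actin, had it, with a median of 15.5. The 14 linkers and other basement membrane proteins had it in 10, with a median of 6.08. The 15 other matrix receptors had it in 11 (median 9.32) and the 8 other laminin chains in 6 (median 7.3). Of 2 other collagen IV genes 1 had it (fold 6.17), and of 3 hemidesmosome genes 1 (fold 4.56).

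Among the other collagen IV chains, Col4a5 had a peak of fold 6.17 at its end, and that peak also fell in the window of its neighbour Col4a6. H3K4me3 there had fold 23.5. Among the other 8 laminin chains Lamb2 (34.8, nearest to Usp19) and Lamc1 (29.9) had the highest ETV5 folds, while Lama2 and Lama4 had no peak of either kind. Lamc1 encodes the gamma chain that pairs with the Lama5 chain, and its H3K4me3 fold was 48.9. Of the 14 linkers and other basement membrane proteins, Egflam (16.1, inside the gene) and Tinagl1 (10.5) were highest. In the window 13 of the 14 had ETV5 and 11 had H3K4me3, with Egflam and Col15a1 among those without H3K4me3.

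Of the 15 other matrix receptors, Cd151, a tetraspanin partner of laminin-binding integrins, and Bcam, a receptor for the Lama5 chain, had the highest folds in the window. These were 63.7 with Tspan4 as the nearest gene and 58.1 with Nectin2, whereas their own ends had 9.32 and 8.96. Itga8 and Itgb8 had no H3K4me3 in the window, and Itgb8 had no ETV5 either. Of the other hemidesmosome genes, the cytolinker gene Plec had 21 ETV5 peaks with a highest fold of 13.4, inside the gene, and H3K4me3 of up to 32.3 in the window. Dst reached 10.2 inside the gene, with H3K4me3 of up to 33.9, and Col17a1 had 1 peak of fold 3.43 and no H3K4me3. Of the collagen assembly genes P4hb (44.5, nearest to Arhgdia) and the lysyl hydroxylase gene Plod3 (32.6) were highest, and Pxdn, which crosslinks collagen IV, had no peak of either kind. Of the integrin adhesion genes the talin gene Tln1 (55.5) and Ilk (48.8, nearest to Rrp8) were highest, and Fermt1 had no H3K4me3.

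**Figure D4:**
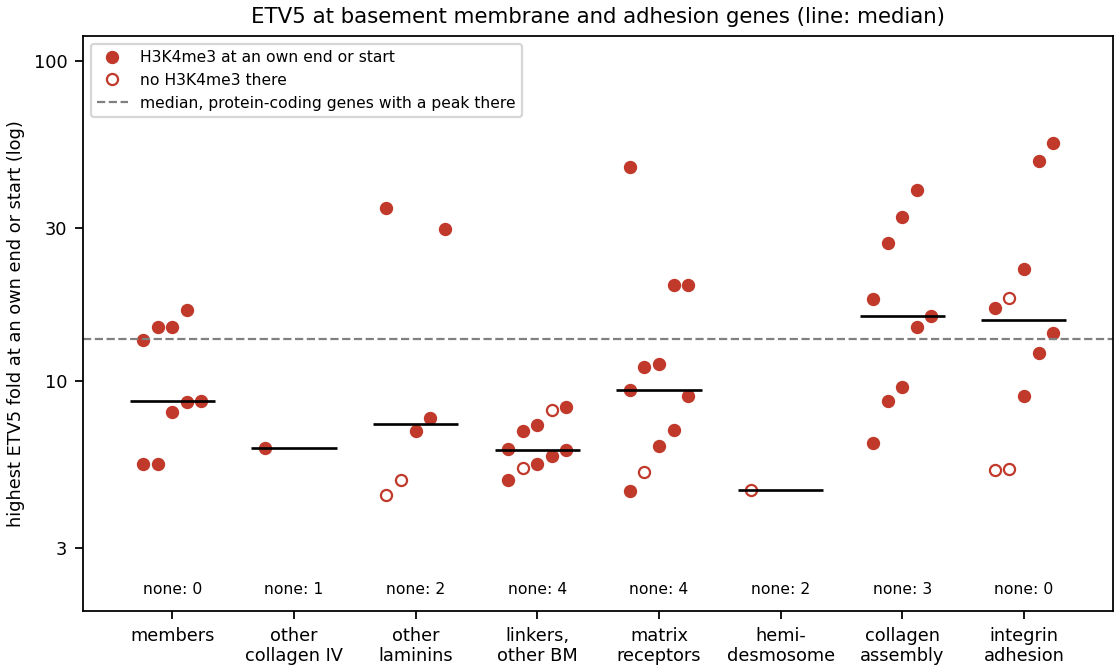
Highest ETV5 fold (log axis) within 1 kb of a gene's own ends or starts for the members and 7 groups of the wider list; filled points also have H3K4me3 there, open points do not, lines are group medians, and the number of genes with no ETV5 peak there stands below. The dashed line is the median of all protein-coding genes with such a peak (13.5); the medians of collagen assembly (15.9) and integrin adhesion (15.5) lie above it and that of the members (8.64) below.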

How the data were processed

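The data are ChIP-seq peaks of 1 ETV5 and 1 H3K4me3 library from mouse AT2 cells, named by antibody. Each library had its own MACS2 run (2.1.0.20150420, q-value threshold 0.05, 1 tag kept per position), per the file headers. Which aligner was used is not given in the sources. Per the file headers the pileup signal is the number of fragments at the summit, and all deposited pileups were whole numbers. The authors' deposited values also give, for each peak, the fold enrichment ratio, the −log10 p-value and the −log10 q-value, besides summit and width. As background, per the file headers, the ETV5 peaks were called against 27495486 tags of an input with another name than the input of the labels, and H3K4me3 against 44758677 tags of the labelled one. The lists are therefore not on a common scale, and with fewer tags the weak ETV5 peaks are less securely called.

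The submitters' processing notes name build mm9, but the coordinates are those of GRCm38: 66.1% of 14702 H3K4me3 summits lay within 1 kb of a GRCm38 RefSeq start, and ETV5 peaks on chromosome Y reach 90803282. Gene ends came from the RefSeq gene table of GRCm38.p6, and starts and strands from its promoter table, which covers 17491 of the 21883 protein-coding genes. Peaks were assigned with pandas 2.3.3 and numpy 2.4.6, intervals computed with scipy 1.17.1 and figures drawn with matplotlib 3.10.9, all under Python 3.11.15. The peak assignment was tested on simulated data. Motifs were searched on both strands. With 1 library per antibody samples could not be tested against each other, and none of the values is a p-value of this work. The members, the wider list and the rules were chosen with earlier results of these data known. Named are all members, neighbours nearest to a peak, and in each group of the wider list up to 2 genes with the highest ETV5 fold and up to 2 without H3K4me3.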

Additional observations from a re-analysis of the deposited data

How the results depend on the processing

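The counts of 9 members with ETV5 and with H3K4me3 in the window stayed at 9 with windows of 0, 5 and 50 kb. They also stayed at 9 with summits in place of any base and with a −log10 q of at least 10. The same held with only peaks nearest to an end or start of a member. With a fold of at least 10 they were 6 and 7. The 45 ETV5 peaks became 16 at a −log10 q of at least 10 and 11 at a fold of at least 10, of which 62.5% and 72.7% overlapped H3K4me3. The 16 H3K4me3 peaks became 9 with a window of 0 kb and 9 at a fold of at least 10. They also became 9 when only peaks nearest to an end or start of a member were kept. The share of ETV5 peaks in H3K4me3 was 24.4% when at least 50% of the peak had to overlap, and also when its summit did. It was 19.4% with only peaks nearest to an end or start of a member, which left out both peaks inside Itgb4. Among genes of like window length, the background rose to 80.0% for ETV5 and 77.9% for H3K4me3. Chosen after the data were seen were 4 alternatives for summits at own ends. For ETV5 they gave 8 members at 0.5 kb, 9 at 2 kb, 7 at a −log10 q of at least 10, where the Col4a3 and Col4a4 start was lost, and 4 at a fold of at least 10. For H3K4me3 they gave 8, 9, 8 and 6. No paired analysis was possible because there was 1 library per antibody, and for the same reason no replicate could be left out. ETV5 pileups under about 10 fragments have wide counting errors, and regions without a peak may hold binding not detectable at this depth.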
